A study of Mus musculus with 2 samples.

Results

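The 8 genes described here are Pdcd1, Lag3, Ctla4, Havcr2 and Cd160, which encode receptors that can restrain lymphocytes, Cd200, which encodes a surface ligand, Icos, which encodes a costimulatory receptor, and Tox, which encodes a nuclear factor. They were chosen by symbol, and they were chosen from earlier results on these same cells, in which their levels differed between thymic stages and liver cell types, so those levels are given as a description. All 8 were found once each among the 27998 genes counted. The cells were γδ T cells, T lymphocytes whose receptor pairs a γ with a δ chain, sorted as CD3e and γδ TCR positive cells from untreated wild type C57BL/6J mice at 8 weeks of age. There was 1 library from the liver and 1 from the thymus, prepared with the droplet 3′ kit of 10x. A unique molecular identifier (UMI) marks each transcript that was captured. The mice behind a library cannot be told apart, and only the thymic cells were depleted of CD4 and CD8 carrying cells with beads ahead of sorting.

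PD-1, the product of Pdcd1, is induced by antigen receptor signals and recruits phosphatases that dampen them when it binds PD-L1 or PD-L2. CTLA-4 competes with CD28 for CD80 and CD86, LAG-3 binds MHC class II, TIM-3 (Havcr2) is an inhibitory receptor best known from T helper and myeloid cells, and CD160 binds HVEM and is common on NK cells and cytotoxic lymphocytes. CD200 acts on cells that carry its receptor CD200R1, ICOS supports effector lymphocytes when it meets ICOS ligand, and TOX is an HMG-box factor used in thymic T cell development and kept on in chronically stimulated T cells. In the thymus, γδ T cells lose CD24 as they mature and settle on an interferon-γ (type-1) or an interleukin-17 programme.

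Promoter sequence is shown for Pdcd1, Cd200 and Cd160, because among thymic clusters these 3 genes were all highest in the same one, the Tnfrsf9 Eomes cells. For Cd160 the interval there overlapped that of the mature type-1-like thymic cells. Each line holds the 250 bases before a start site, 5′ to 3′ on the gene's strand, from RefSeq on GRCm38.p6, and capitals mark a match to 1 of 6 motifs. RefSeq promoters were found for Pdcd1, Ctla4, Havcr2, Cd160 and Cd200. The positions are chr1:94052554-94052803 for Pdcd1, chr16:45409054-45409303 for Cd200, and chr3:96829352-96829601 and chr3:96814522-96814771 for the upstream and the inner start of Cd160, all on the minus strand, and none of the 4 windows overlaps an annotated exon of its gene.
Pdcd1: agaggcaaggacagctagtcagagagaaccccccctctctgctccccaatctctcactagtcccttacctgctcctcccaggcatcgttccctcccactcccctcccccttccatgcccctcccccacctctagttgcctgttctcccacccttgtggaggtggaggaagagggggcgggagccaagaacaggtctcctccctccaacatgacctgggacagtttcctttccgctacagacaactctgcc
Cd200: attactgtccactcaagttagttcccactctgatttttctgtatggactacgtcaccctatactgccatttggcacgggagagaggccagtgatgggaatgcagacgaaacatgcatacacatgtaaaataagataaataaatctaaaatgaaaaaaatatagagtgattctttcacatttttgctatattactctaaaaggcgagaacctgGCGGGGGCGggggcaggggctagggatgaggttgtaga
Cd160, upstream start: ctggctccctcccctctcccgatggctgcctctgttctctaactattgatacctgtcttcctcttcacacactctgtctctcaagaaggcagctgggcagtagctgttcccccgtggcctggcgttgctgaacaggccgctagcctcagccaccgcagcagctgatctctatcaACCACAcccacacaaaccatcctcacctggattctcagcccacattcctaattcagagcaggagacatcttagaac
Cd160, inner start: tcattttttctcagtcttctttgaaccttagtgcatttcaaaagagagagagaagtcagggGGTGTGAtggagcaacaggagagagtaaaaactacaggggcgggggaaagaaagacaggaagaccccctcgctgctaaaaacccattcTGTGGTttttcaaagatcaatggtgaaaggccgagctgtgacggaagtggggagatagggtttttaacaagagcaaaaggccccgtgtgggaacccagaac

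Both strands were searched for an AP-1 motif (TGANTCA), an NFAT core (GGAAAA), an NR4A motif (AAAGGTCA), a T-box motif (TCACACC), an Egr motif (GCGNGGGCG) and a Runx motif (TGTGGT), with overlapping matches kept. The Pdcd1 window held none of the 6 strings. The Cd200 window held the Egr string, which 4.74% of all RefSeq windows of this length held. The upstream Cd160 window held the Runx string (in 14.0% of windows), and the inner one held the Runx string and the T-box string (in 3.33% of windows). The AP-1, NFAT and NR4A strings, in none of the 4 windows shown, were held by 6.73%, 20.4% and 1.35% of windows. A match is a description of the letters, not a binding site.

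Cells with 800 to 4000 genes and at most 6% mitochondrial UMIs were kept, 8075 of 8658 hepatic and 4351 of 4541 thymic barcodes, more than the study analysed, a difference whose cause was not tested, with medians of 2741 and 3271 UMIs, and 60 barcode sequences occurred in both libraries. Each library was clustered alone, without the 8 genes and their pathway among the variable genes, and clusters carry an X-like name where listed markers gave one and otherwise the names of leading genes. Levels are in CPM, a gene's UMIs in a class after the total of that class is scaled to 1000000, with 95% Poisson intervals in parentheses. Ratios and shares of cells have exact 95% binomial intervals, and all of these describe counting error alone. A single library stood for each tissue, so there was no replicate check and no test, and tissue cannot be told apart from library. The 3 Cd3 genes summed to between 1888 and 5026 CPM in all clusters with a level except the myeloid-like hepatic one (846 CPM). Summed markers of other cells reached at most 104 CPM for 4 B cell genes, 420.2 for Cd4, Cd8a and Cd8b1, 374 for 5 erythroid genes, 113 for 3 endothelial genes and 17.0 for 4 hepatocyte genes in the 17 clusters given a level, while 6 myeloid genes reached 38949 in the myeloid-like cells. The 3 genes listed for regulatory T cells summed to 38.8 to 241 CPM in hepatic and 192 to 985 CPM in thymic clusters, highest in Tnfrsf9 Eomes cells, with the defining gene Foxp3 at no more than 0.814 CPM and the rest from Il2ra and Ikzf2. Genes of the T cell receptor loci were not analysed here.

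**Figure D1:**
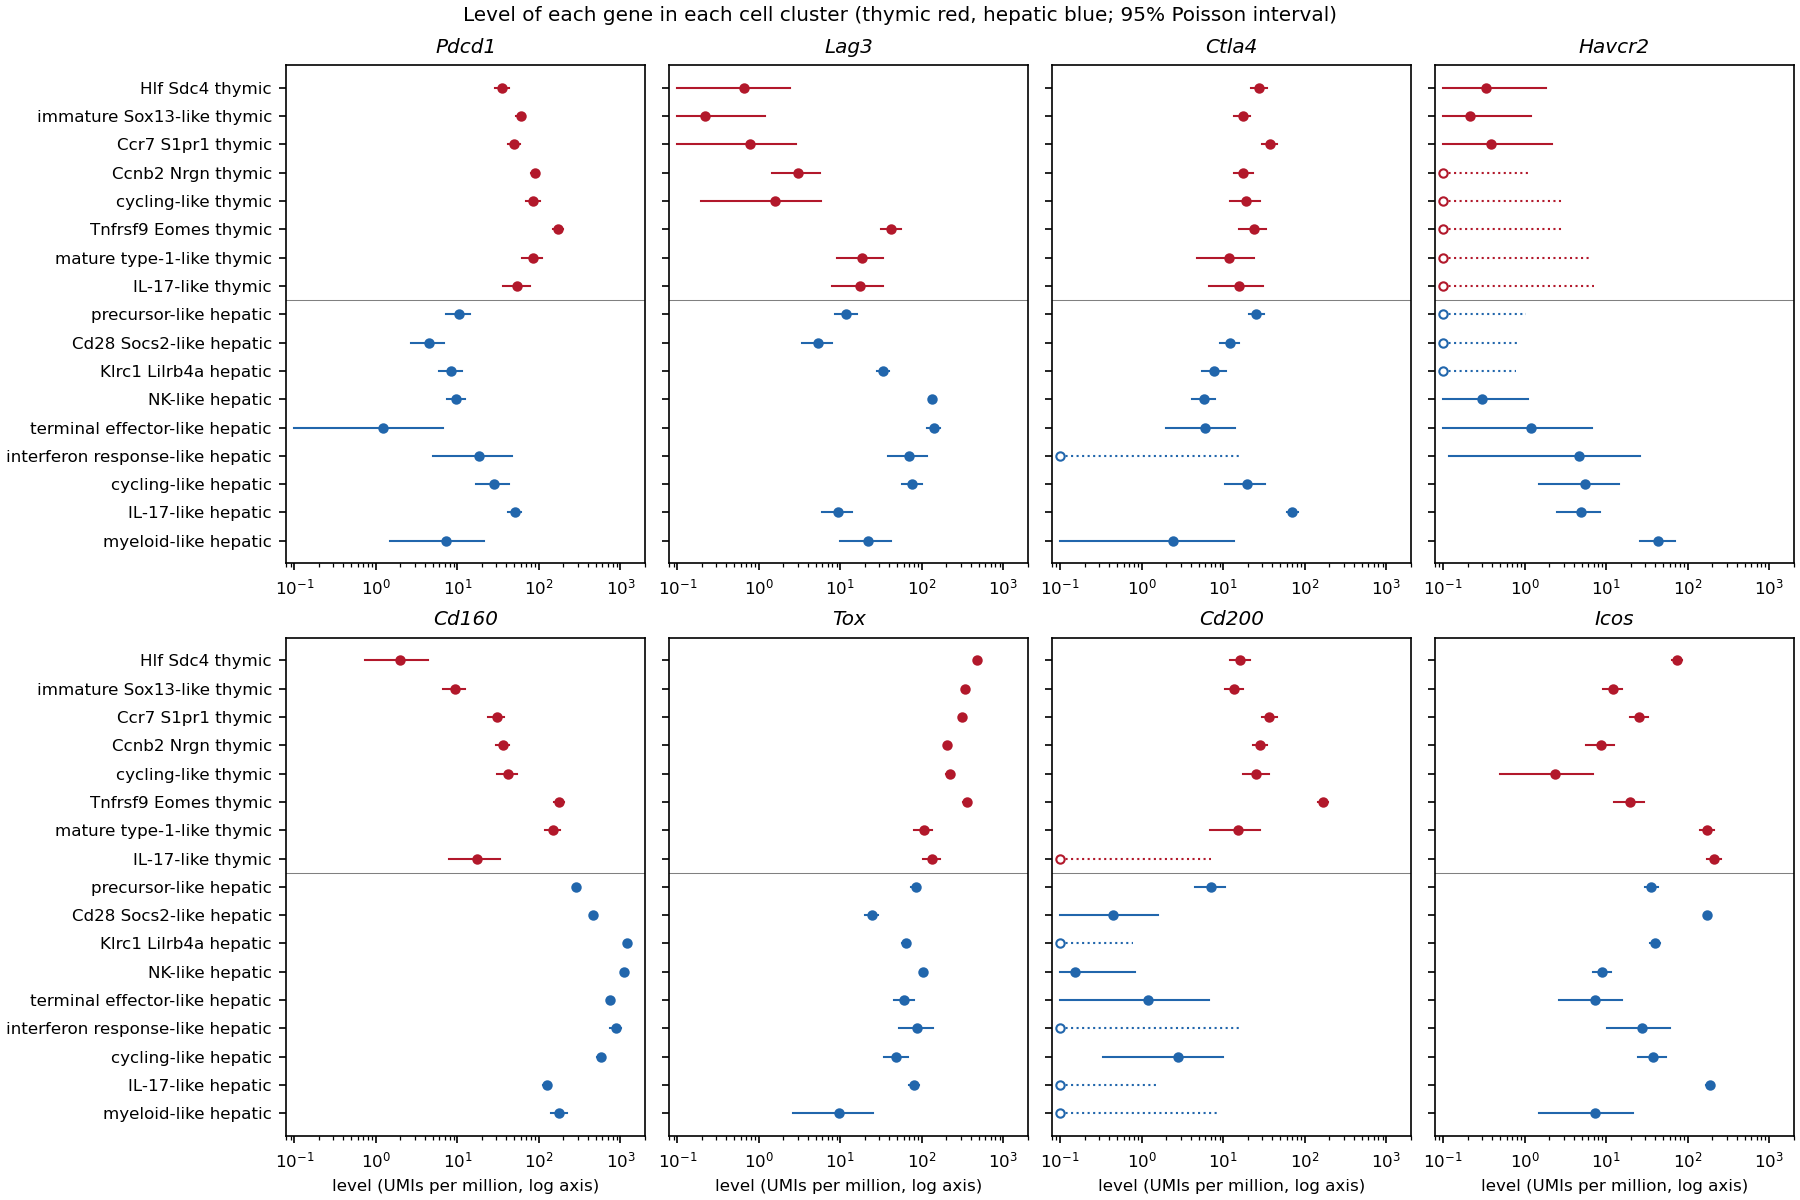
Level of each of the 8 genes (CPM, log axis) in 8 thymic (red) and 9 hepatic (blue) clusters, with 95% Poisson intervals; an open point at the left edge marks 0 UMIs, and intervals are drawn from 0.1 CPM up. Pdcd1 and Tox were higher in most thymic clusters, Lag3 and Cd160 in most hepatic ones, and Cd200 peaked in the Tnfrsf9 Eomes thymic cells at 169 CPM.

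Over all cells of a library, Pdcd1, Tox and Cd200 were higher in the thymus, and Lag3, Cd160 and Icos were higher in the liver. Pdcd1 was at 70.1 CPM (66.2 to 74.2) in thymic and 13.1 (11.7 to 14.6) in hepatic cells, Tox at 311 (303 to 319.8) and 70.3 (67.0 to 73.8), and Cd200 at 32.1 (29.4 to 34.9) and 1.32 (0.906 to 1.87). Lag3 was at 54.5 CPM (51.6 to 57.5) in hepatic and 5.22 (4.19 to 6.42) in thymic cells, Cd160 at 732 (721 to 743) and 35.8 (33.0 to 38.8), and Icos at 68.9 (65.6 to 72.2) and 35.9 (33.1 to 38.9). Ctla4 differed least, with a hepatic to thymic ratio of 0.763 (0.663 to 0.879). Of the 7 members with at least 50 UMIs over both libraries, 2 were at least 2-fold higher in the liver, where 12.3% of all 10744 such genes were, and 3 at least 2-fold lower, where 17.0% were. The members had been picked for such differences, so nothing is read from these counts, here or in the contrasts that follow. The library values averaged over unlike cells, as the levels by cluster show.

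Pdcd1 (ENSMUSG00000026285, chromosome 1, 94038305 to 94052553, minus strand, GRCm38, GENCODE M21) was detected in every thymic cluster. The level was 35.5 CPM (29.1 to 42.9) in the Hlf Sdc4 cells, which scored for immature markers, 59.4 (52.6 to 66.9) in immature Sox13-like cells and 49.8 (41.5 to 59.2) in Ccr7 S1pr1 cells. Of the thymic clusters, the Ccr7 S1pr1 cells scored highest for the egress-linked genes of transitional cells (1.31). They scored higher still for the interferon response list (1.42), with Ifit1 among their leading genes, and took no name. The Pdcd1 level was 88.8 (78.9 to 99.6) in Ccnb2 Nrgn and 85.2 (69.8 to 103) in cycling-like cells, both with deep cells (medians of 6264 and 9817 UMIs). The highest level of all 17 clusters, 172 (149 to 197), was in Tnfrsf9 Eomes cells, and its interval did not overlap that of the next cluster, whereas every later pair of neighbours in the order overlapped.

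In the 183 mature type-1-like thymic cells, Pdcd1 was at 83.8 CPM (62.2 to 110.4), from 50 UMIs in 37 cells. These cells held little Cd24a (62.0 CPM, against 706 in the 2 immature clusters together) and carried Tbx21, the factor of the type-1 programme, at 31.8 CPM, against 0 UMIs in the immature cells. Their Pdcd1 level was 1.67 times (1.22 to 2.25) that of the immature clusters (50.01, 45.1 to 55.3 CPM) and 11.2 times (7.92 to 15.7) that of the 5852 type-1 hepatic cells (7.46, 6.21 to 8.89 CPM), the pool of the NK-like, Klrc1 Lilrb4a, Cd28 Socs2-like and terminal effector-like clusters. The pool was what remained without the precursor-like, IL-17-like, cycling-like, interferon response-like, B cell-like and myeloid-like clusters, and no type-1 score was required. Scores for the mature type-1 list against the other hepatic clusters were 0.75, 0.31, -0.10 and -0.24 in the pool, in that order. The interferon response-like cells, left out, scored 0.31. With all cells thinned to 1500 UMIs, 12.6% (8.14% to 18.3%) of mature type-1-like thymic and 0.974% (0.739% to 1.26%) of type-1 hepatic cells had a Pdcd1 UMI, 20.2% and 1.98% without thinning, at median depths of 3095 UMIs and, in the 4 hepatic clusters, 2678 to 2779. None of 105 myeloid-like hepatic cells, taken as the background, had one after thinning, which allows a share of up to 2.86%, taking 3 counts as the limit that a count of 0 allows. Their Pdcd1 level, 7.28 CPM (1.5 to 21.3), overlapped that of the type-1 hepatic cells, so the type-1 hepatic value was not told apart from the hepatic background. These cells also held RNA of the Cd3 genes, and no thymic cluster could serve as a background, the lowest Pdcd1 level there being 35.5 CPM (29.1 to 42.9) in Hlf Sdc4 cells. Thinning left out between 0 and 3 cells per cluster that held fewer than 1500 UMIs. When both libraries were clustered together, the class of mature type-1 thymic cells held 168 of the 183 mature type-1-like and 147 of the 305 Tnfrsf9 Eomes cells, with Pdcd1 at 149 CPM and a ratio to type-1 hepatic cells of 19.5. Leaving mitochondrial and ribosomal-protein genes out of the totals gave 139 CPM.

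In the liver, Pdcd1 was highest in IL-17-like cells, at 50.2 CPM (41.7 to 59.8) from 124 UMIs in 85 of 786 cells, 6.72 times (5.20 to 8.69) the type-1 level. It was 27.8 (17.0 to 43) in cycling-like, 18.5 (5.04 to 47.3) in interferon response-like and 10.4 (7.32 to 14.3) in precursor-like cells. Among the type-1 clusters it lay between 1.21 (0.0307 to 6.75) in terminal effector-like and 9.61 (7.40 to 12.3) in NK-like cells. The level of IL-17-like thymic cells, 54.2 (36.0 to 78.4), did not differ from the hepatic one beyond counting error, with a ratio of 1.08 (0.690 to 1.64). Within the thymus, the level of IL-17-like over mature type-1-like cells was 0.648 (0.393 to 1.05), an interval that includes 1.

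Lag3 (ENSMUSG00000030124, chromosome 6, 124904361 to 124911705, minus strand) was nearly absent from immature thymic cells, with 3 UMIs in 2235 cells (0.393, 0.0810 to 1.15 CPM). Within the thymus it was at 42.4 CPM (31.6 to 55.5) in Tnfrsf9 Eomes cells and 18.4 (9.20 to 33.0) in mature type-1-like cells. The 17.4 (7.97 to 33.1) CPM of the IL-17-like thymic cells came from 9 UMIs in 3 cells, 7 of them in 1 cell, and was 1.06 CPM when the class was taken from its markers without clusters. In the liver the order ran from terminal effector-like (139, 115 to 167) and NK-like (131, 123 to 140.4) over cycling-like (76.6, 57.7 to 99.6) and interferon response-like (69.3, 38.8 to 114) to Klrc1 Lilrb4a cells (33.4, 28.4 to 39.1). It was low in precursor-like (11.8, 8.50 to 15.9), IL-17-like (9.31, 5.90 to 14.0) and Cd28 Socs2-like cells (5.33, 3.42 to 7.93). The first pair did not differ beyond counting error, and cycling-like cells lay below both. The type-1 hepatic to immature thymic ratio was 178 (60.9 to 866), resting on 3 UMIs in the thymus, and was 46.2 when both classes were taken from marker UMIs without clusters. After thinning, 16.4% (15.0% to 18.0%) of NK-like and 0.834% (0.445% to 1.42%) of Cd28 Socs2-like cells, the lowest hepatic level and taken here as the background, had a UMI (28.4% and 1.54% without thinning, median depths 2678 and 2748 UMIs). Myeloid-like hepatic cells, the background used for Pdcd1, held 21.8 CPM (9.98 to 41.4) of Lag3, with a UMI in 2.86% (0.593% to 8.12%) after thinning. The interferon response-like, Klrc1 Lilrb4a, precursor-like and IL-17-like hepatic levels overlapped that level and were not told apart from it.

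Cd160 (ENSMUSG00000038304, chromosome 3, 96798763 to 96829351, minus strand) was highest in liver clusters. The level was 1205 CPM (1174 to 1237) in Klrc1 Lilrb4a cells, 1093 (1068 to 1118) in NK-like, 874 (753 to 1007) in interferon response-like, 743 (686 to 805) in terminal effector-like, 571 (517 to 629) in cycling-like and 460.0 (440.4 to 480.2) in Cd28 Socs2-like cells. Precursor-like cells held 281 (264 to 299) and IL-17-like cells 127 (113 to 142). Among these, NK-like cells exceeded Cd28 Socs2-like cells 2.38-fold (2.26 to 2.50), a ratio of 1.33 at resolution 0.4, where 1503 of the 1617 Klrc1 Lilrb4a cells joined the Cd28 Socs2-like cluster. Myeloid-like hepatic cells held 177 (139 to 223) CPM of Cd160 beside 846 CPM of the Cd3 genes, against 937 and 4250.0 CPM in type-1 cells, and whether T cell RNA gave these counts was not tested. The IL-17-like hepatic level overlapped that of the myeloid-like cells and was not told apart from it.

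In the thymus, Cd160 was at 1.99 CPM (0.731 to 4.34) in Hlf Sdc4, 9.29 (6.72 to 12.5) in immature Sox13-like, 30.2 (23.8 to 37.7) in Ccr7 S1pr1, 176 (153 to 201) in Tnfrsf9 Eomes and 149 (119.7 to 183) in mature type-1-like cells. The last 2 overlapped, and both lay above every other thymic cluster. The mature type-1-like level was 23.2 times (16.2 to 33.6) the immature level, and still 6.29-fold (5.11 to 7.83) below that of the type-1 hepatic cells. That first ratio was 11.8 with cells taken from marker UMIs and 40.4 at resolution 0.8. A Cd160 UMI was found after thinning in 17.5% (12.3% to 23.8%) of mature type-1-like thymic and 68.6% (67.4% to 69.8%) of type-1 hepatic cells, and in 31.7% and 82.8% without thinning. The background was 0.354% (0.0964% to 0.903%) in Hlf Sdc4 cells for the thymus (median depth 2579.5 UMIs, 0.529% without thinning) and 14.3% (8.22% to 22.5%) in myeloid-like cells for the liver (median depth 3069 UMIs, 29.5% without thinning).

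Ctla4 (ENSMUSG00000026011, chromosome 1, 60887000 to 60915832, plus strand) peaked in a single class, the IL-17-like hepatic cells, at 70.4 CPM (60.3 to 81.7) from 174 UMIs in 116 cells. That was 8.73 times (6.94 to 11) the type-1 hepatic level (8.06, 6.76 to 9.54), and the alternatives kept this ratio between 7.81 and 9.76. IL-17-like thymic cells held 15.5 (6.69 to 30.5) from 8 UMIs, 4.54-fold (2.26 to 10.7) less than their hepatic counterparts. The second level in the order was that of Ccr7 S1pr1 thymic cells, 37.2 (30.1 to 45.5), followed by Hlf Sdc4 (27.6, 22.0 to 34.2) and precursor-like hepatic cells (25.6, 20.6 to 31.4), and only the first pair of neighbours in the order of all clusters did not overlap. After thinning, 9.03% (7.12% to 11.3%) of IL-17-like and 0.793% (0.478% to 1.24%) of NK-like hepatic cells, part of the type-1 pool and taken here as the background, had a UMI (14.8% and 1.54% without thinning, median depths 2722 and 2678 UMIs). Myeloid-like hepatic cells, the background used for Pdcd1, held 2.43 CPM (0.0614 to 13.5) of Ctla4. The type-1 hepatic level lay inside that interval and was not told apart from it.

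Icos (ENSMUSG00000026009, chromosome 1, 60977927 to 61000320, plus strand) was shared by IL-17-like cells, Cd28 Socs2-like cells and mature type-1-like thymic cells. The level was 211 CPM (173 to 255) in IL-17-like thymic, 185 (169 to 203) in IL-17-like hepatic, 174 (162 to 187) in Cd28 Socs2-like hepatic and 174 (142 to 211) in mature type-1-like thymic cells, and neighbours in this order did not differ beyond counting error. Next came the Hlf Sdc4 thymic cells at 74.4 (65.0 to 84.8), above Klrc1 Lilrb4a (40.2, 34.7 to 46.3), precursor-like (36.0, 30 to 42.8) and Ccr7 S1pr1 cells (25.5, 19.7 to 32.5). Immature Sox13-like thymic cells held 12.1 (9.14 to 15.7), NK-like 9.01 (6.87 to 11.6) and terminal effector-like hepatic cells 7.27 (2.67 to 15.8). Icos differed between the 2 immature clusters more than any other member with at least 50 UMIs in each, and split the type-1 hepatic cells, with a Cd28 Socs2-like to NK-like ratio of 19.4 (14.9 to 25.6). That ratio was 11 at resolution 0.4, 10.5 with both libraries clustered together and 10.3 with cells taken from marker UMIs. Cd28, whose product belongs to the same receptor family, is a marker of the Cd28 Socs2-like class, so its level there is no finding.

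Tox (ENSMUSG00000041272, chromosome 4, 6686353 to 6991557, minus strand) was highest in the Hlf Sdc4 thymic cells, which scored for immature markers. It was at 479 CPM (455 to 504) in Hlf Sdc4, 353 (321 to 388) in Tnfrsf9 Eomes, 339 (322 to 356) in immature Sox13-like, 308 (287 to 330.3) in Ccr7 S1pr1, 223 (198 to 251) in cycling-like and 205 (189.9 to 221) in Ccnb2 Nrgn cells. IL-17-like (134, 104 to 169) and mature type-1-like thymic cells (106, 81.1 to 135) overlapped with NK-like hepatic cells (103, 95.1 to 111). The immature clusters together exceeded mature type-1-like thymic cells 3.73-fold (2.91 to 4.87) and type-1 hepatic cells 5.76-fold (5.38 to 6.17). The first of these ratios was 1.97 with cells taken from marker UMIs and 1.83 with both libraries clustered together. Within the liver, Tox was lowest among T cell clusters in Cd28 Socs2-like cells at 24.2 (19.9 to 29.2), 4.24-fold (3.46 to 5.24) below NK-like cells, and was at 83.7 (74.5 to 93.8) in precursor-like and 79.3 (68.6 to 91.2) in IL-17-like cells. A Tox UMI was found after thinning in 45.3% (43.2% to 47.3%) of immature thymic, 15.8% (10.9% to 22.0%) of mature type-1-like thymic and 9.50% (8.76% to 10.3%) of type-1 hepatic cells, and in none of 105 myeloid-like cells, the hepatic background, where 3 counts would be 2.86%. Without thinning, the shares were 70.2%, 26.8%, 17.0% and 1.90%.

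Cd200 (ENSMUSG00000022661, chromosome 16, 45382135 to 45409053, minus strand) was close to absent from the liver, where 25 of 32 UMIs lay in precursor-like cells (7.02, 4.54 to 10.4 CPM). In the thymus it was at 169 CPM (146 to 193) in Tnfrsf9 Eomes cells, 36.8 (29.8 to 45.1) in Ccr7 S1pr1, 28.4 (22.9 to 34.8) in Ccnb2 Nrgn, 25.5 (17.4 to 36.0) in cycling-like, 16.3 (12 to 21.5) in Hlf Sdc4, 15.1 (6.89 to 28.6) in mature type-1-like and 13.6 (10.5 to 17.4) in immature Sox13-like cells. IL-17-like thymic cells held 0 UMIs, with an upper 95% Poisson limit of 7.15 CPM. The Ccr7 S1pr1 cells exceeded the immature clusters 2.51-fold (1.89 to 3.33), which moved to 1.62 with cells taken from marker UMIs and stayed at most 3.59 elsewhere. The classes by marker UMIs, of 2252 and 2029 cells, were not made exclusive, so a cell could lie in both. Hemoglobin genes led the Ccr7 S1pr1 cluster too, with 374 CPM of 5 erythroid genes against 49.2 in immature cells, and their part in the Cd200 value was not tested.

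Havcr2 (ENSMUSG00000020399, chromosome 11, 46454935 to 46481255, plus strand) was hardly detected in γδ T cells. All thymic cells together held 3 UMIs and all hepatic cells 38, of which 18 lay in the 105 myeloid-like cells (43.7, 25.9 to 69.0 CPM) and 12 in IL-17-like cells (4.86, 2.51 to 8.48 CPM, in 10 cells). The 5852 type-1 hepatic cells held 3 UMIs. The hepatic to thymic library ratio of 8.94 (2.84 to 45.3) rests on 3 thymic UMIs and on the myeloid-like cells.

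The Tnfrsf9 Eomes thymic cells, 305 cells or 7.01% of the thymic cells, held the highest thymic level of 4 members, Pdcd1, Lag3, Cd160 and Cd200. They carried Tnfrsf9, the costimulatory receptor 4-1BB, at 185 CPM and Eomes, a T-box factor, at 63.5 CPM, and both are leading genes of the cluster. Cd24a, at 261 CPM, lay between the immature (706) and the mature type-1-like cells (62.0). Compared with the immature clusters, Pdcd1 was 3.44 times (2.89 to 4.08), Cd200 11.5 times (9.09 to 14.6) and Cd160 27.4 times (20.03 to 38.2) as high, Lag3 was counted with 52 UMIs against 3 in immature cells, Tox was 0.897 times (0.810 to 0.993), Ctla4 1.11 times (0.719 to 1.65) and Icos 0.533 times (0.336 to 0.810) the immature level. Of 7 members with at least 50 UMIs, 4 were at least 2-fold higher, against 6.27% of 8069 genes, and 0 at least 2-fold lower, against 7.71%. Set beside the mature type-1-like cells, they held 2.05 times (1.5 to 2.85) the Pdcd1, 11.2 times (5.78 to 24.8) the Cd200 and 3.35 times (2.57 to 4.44) the Tox, but 8.91-fold (5.67 to 14.5) less Icos. Lag3 was 2.30 times (1.18 to 4.89) as high, from 52 and 11 UMIs. The Cd160 ratio was 1.18 (0.918 to 1.53), an interval that includes 1. The myeloid list scored highest for this cluster, but only Cd74 of it was a leading gene, so the cluster took no name. The 6 myeloid markers summed to 639 CPM against 117 in immature cells, and Cd74 was at 358 CPM, with 439 UMIs in 29 cells, 331 of them in 1 cell. The part of such cells in the result was not tested.

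The borders of this class moved with the clustering. With 20 principal components, 3000 variable genes, resolution 0.4, at least 500 genes per cell or the highest doublet scores removed, a smaller class resulted, with Cd200 at 334, 388, 378, 383 and 385 CPM. Cells taken from UMIs of the activation markers, without clusters, held less, with Pdcd1 at 104, Cd200 at 82.6, Cd160 at 67.1 and Lag3 at 11.4 CPM. The Pdcd1 ratio to immature cells then was 1.60, no longer 2-fold, and elsewhere lay between 2.76 and 5.04. The 2.76 came with both libraries clustered together, where this class and the mature type-1 thymic class were the same 333 cells. The Cd200 ratio ranged from 4.27 by marker UMIs to 28.5 without the highest doublet scores. By marker UMIs, a cell could lie both in this class and in the immature one. A Pdcd1 UMI was found after thinning in 20.8% (16.4% to 25.8%) and a Cd200 UMI in 19.8% (15.5% to 24.7%) of the class as clustered, against 7.03% (6.01% to 8.17%) and 2.15% (1.59% to 2.84%) of immature cells, and without thinning in 43.3%, 36.7%, 13.8% and 4.07%, at median depths of 3627 UMIs and, in the immature clusters, 2579.5 and 3993. The alternatives for this class were added after the data had been seen.

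**Figure D2:**
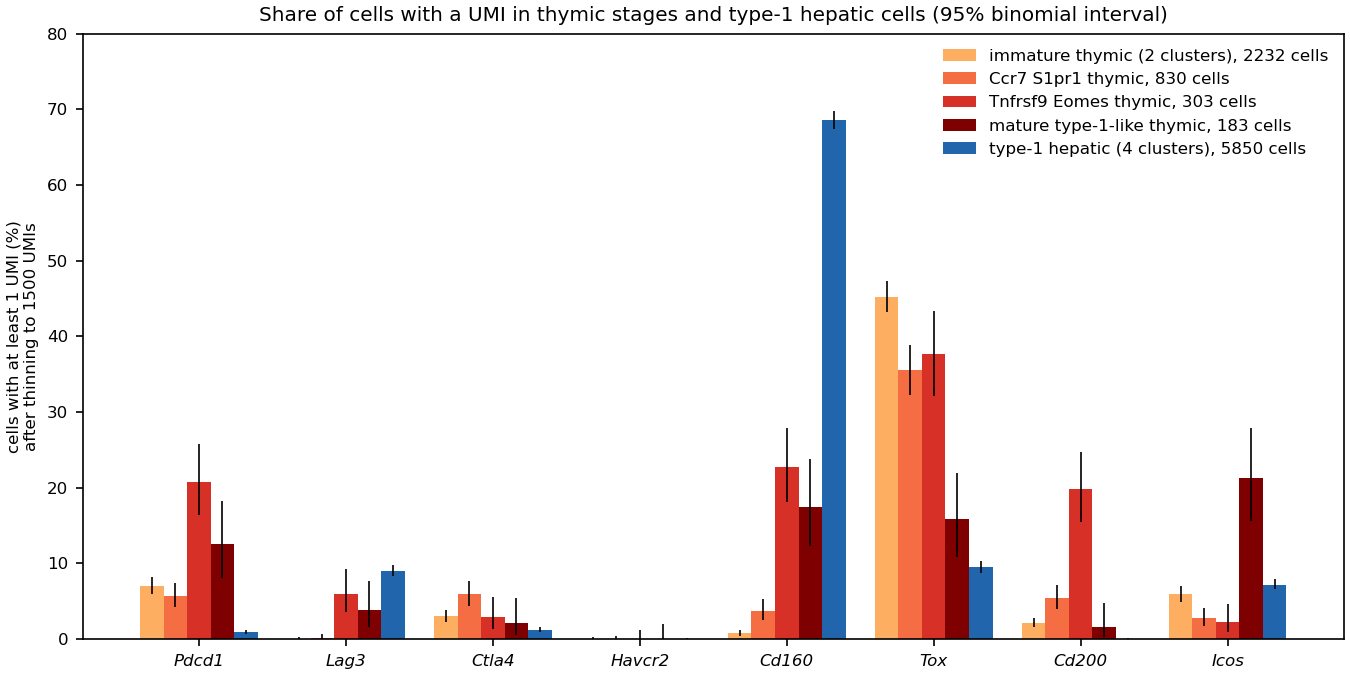
Share of cells (%) with at least 1 UMI of each gene with all cells thinned to 1500 UMIs, in 4 thymic classes and the type-1 hepatic cells; bars are shares and lines exact 95% binomial intervals. Pdcd1 and Cd200 were most frequent in Tnfrsf9 Eomes thymic cells, Icos in mature type-1-like thymic cells (21.3%) and Cd160 in type-1 hepatic cells (68.6%).

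The contrasts between classes placed the members side by side. From immature to mature type-1-like thymic cells, Cd160 and Icos (4.75-fold, 3.76 to 5.97) were at least 2-fold higher and Tox at least 2-fold lower, 2 and 1 of 6 members with at least 50 UMIs, against 5.96% and 20.3% of 7886 genes. Between mature type-1-like thymic and type-1 hepatic cells, Pdcd1 and Icos (2.80-fold, 2.27 to 3.43) were higher in the thymus, 2 of 6 against 6.07% of 8963 genes. In the same contrast Lag3 (3.8-fold, 2.12 to 7.64) and Cd160 were lower, 2 against 15.6%. NK-like cells were at least 2-fold above Cd28 Socs2-like cells in Pdcd1 (2.16-fold, 1.29 to 3.77, with both levels inside the interval of the myeloid-like cells), Lag3 (24.6-fold, 16.5 to 38.7), Cd160 and Tox, 4 of 6 members against 3.81% of 8251 genes. They were lower in Ctla4 and Icos, 2 members against 3.37%. At resolution 0.4 the Lag3 and Tox ratios were 7.37 and 2.48.

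IL-17-like hepatic cells exceeded type-1 hepatic cells in Pdcd1, Ctla4 and Icos (2.98-fold, 2.66 to 3.33), 3 of 6 members against 6.96% of 9224 genes, and were lower in Lag3 (7.53-fold, 4.99 to 11.9) and Cd160 (7.38-fold, 6.60 to 8.27), 2 against 8.65%. Between IL-17-like cells of the 2 tissues, 0 of 5 members were at least 2-fold higher in the thymus, against 2.53% of 5134 genes, and Ctla4 and Cd160 were lower, 2 against 6.04%. The hepatic Cd160 level here (127, 113 to 142 CPM) was not told apart from that of the myeloid-like cells (177, 139 to 223). Pdcd1, Icos and Tox (1.68-fold, 1.26 to 2.23) lay within 2-fold. The IL-17-like thymic cells also held 1613 CPM of the 6 myeloid markers, against 450.5 in the hepatic ones. Of the 369 Cd74 UMIs among them, 356 lay in 1 cell, and the part of this in the differences was not tested.

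**Figure D3:**
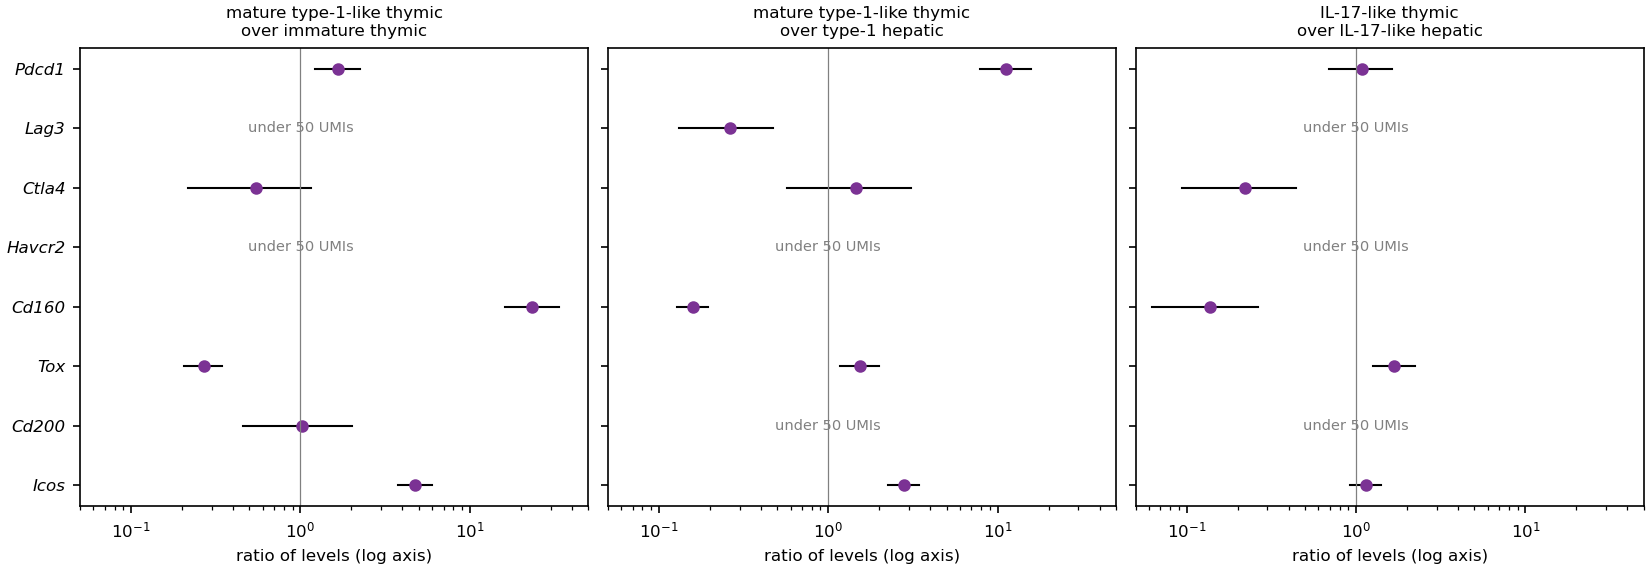
Ratio of levels (log axis) for each gene in 3 contrasts, points with exact 95% intervals; genes with fewer than 50 UMIs over both classes are not drawn. Pdcd1 was 11.2 times higher in mature type-1-like thymic than in type-1 hepatic cells and within 2-fold between IL-17-like cells of both tissues.

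Most of the other inhibitory receptors listed were higher in the liver, as Lag3 and Cd160 were. Of 12 listed, 11 were in the files, and 7 of 11 were at least 2-fold higher in the hepatic library, with 0 lower and a median log2 ratio of 2.44, beside -0.21 over all genes tested, of which 12.3% were higher and 17.0% lower. Cd244, an NK cell receptor of the SLAM family, was at 173 CPM (163 to 183) in NK-like, 83.7 (75.7 to 92.3) in Klrc1 Lilrb4a, 9.33 (6.72 to 12.6) in Cd28 Socs2-like and 20.1 (10.4 to 35.1) in mature type-1-like thymic cells. Tigit, which competes with CD226 for the poliovirus receptor, was at 17.0 (14.0 to 20.4) in NK-like cells. Between mature type-1-like thymic and type-1 hepatic cells, 6 of 10 of these receptors were at least 2-fold lower in the thymus and 0 higher, with a median of -1.74 beside -0.15 over all genes tested, 6.07% of them higher and 15.6% lower. Those 6 include Klrg1, a marker of the terminal effector-like cells, and Lilrb4a, a leading gene of another cluster in the type-1 pool. Their part in the count is no finding. NK-like cells exceeded Cd28 Socs2-like cells in 5 of 9 and were lower in 1, Cd5, with a median of 1.03 beside 0.00 over all genes tested, 3.81% of them higher and 3.37% lower.

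Ligands of the receptors were sparse. Of 11 listed, 6 reached 50 UMIs over both libraries, 3 at least 2-fold higher in the liver (Pdcd1lg2, Cd86 and Icosl) and 2 lower (Lgals9 and Pvr), against the same 12.3% and 17.0% of all genes, with a median log2 ratio of 1.54 beside -0.21. Cd274, which encodes PD-L1, was at 26.8 CPM (15.3 to 43.5) in mature type-1-like thymic, 20.9 (18.8 to 23.2) in type-1 hepatic and 83.2 (49.3 to 131) in interferon response-like hepatic cells. Pdcd1lg2 (PD-L2) was at 43.6 (40.5 to 46.9) in type-1 hepatic and 6.02 (4.41 to 8.03) in immature thymic cells. Cd200r1, the receptor of CD200, was at 45.3 (40.4 to 50.8) in NK-like hepatic and 12.2 (6.84 to 20.1) in Tnfrsf9 Eomes thymic cells, with 2 UMIs in immature thymic cells.

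Of 6 costimulatory receptors, 2 of 5 tested (Tnfrsf9 and Tnfrsf18) were at least 2-fold higher in Tnfrsf9 Eomes than in immature thymic cells and 0 lower, with a median log2 ratio of 0.21 beside 0.01 over all genes tested, 6.27% of them higher and 7.71% lower. Tnfrsf9 leads that cluster. Between the IL-17-like and the type-1 hepatic cells, 4 of 5 were at least 2-fold lower and 0 higher, with a median of -2.10 beside -0.06 over all genes tested, 6.96% of them higher and 8.65% lower. Those 4 include Cd28, a marker of the Cd28 Socs2-like cells in the type-1 pool, so its part in the count is no finding. Among the 14 listed transcription factors, Tox2, the nearest relative of Tox in the list, was at 123 CPM (115 to 131) in immature and 5.03 (1.04 to 14.7) in mature type-1-like thymic cells, and had 3 UMIs in type-1 hepatic cells. Tox3 stayed at or below 3.32 CPM in all classes. Tox4, at 97.8 (90.9 to 105) in immature thymic and 64.5 (60.7 to 68.5) in type-1 hepatic cells, differed by less than 2-fold. Nr4a1, an immediate target of antigen receptor signals, was at 481 (466 to 497) in immature, 225 (199 to 253) in Tnfrsf9 Eomes and 111 (85.5 to 141) in mature type-1-like thymic cells. From immature to mature type-1-like cells, 4 of 10 factors were at least 2-fold lower (Tox2, Nr4a1, Batf and Tcf7) and 0 higher, with a median of -0.94 beside -0.31 over all genes tested, 5.96% of them higher and 20.3% lower. Of 4 signalling partners, Ptpn6, the phosphatase SHP-1, was at 182 CPM (172 to 192) in NK-like, 114 (88.5 to 144) in mature type-1-like thymic and 65.1 (59.5 to 71.0) in immature thymic cells. Sh2d1a, the adaptor SAP, was at 338 (325 to 351) in immature thymic and 16.4 (13.4 to 19.7) in NK-like cells.

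The genes with the most similar pattern were ranked by Pearson r of log2(CPM + 10) over 17 clusters of at least 50 cells, among 4504 genes that reached 50 CPM in some cluster. The clusters share 2 libraries and their depths, so r is a description. They were Gtf2h5 (0.92), Kcnq1ot1 (0.88) and Gm10076 (0.87) for Pdcd1 and Qrich1 (0.93), Zfp330 (0.93) and Phkg2 (0.92) for Tox. For Lag3 they were Car2 (0.93), Itgax (0.90) and Cd244 (0.89), and for Cd160 Rgs3 (0.97), Slamf7 (0.96) and Fasl (0.96), among them Fasl, the death ligand of cytotoxic lymphocytes. Cd200 was most like Kit (0.95), Rab3ip (0.92) and Ift80 (0.92), Icos most like Il18r1 (0.88), 5430421N21Rik (0.87) and Podnl1 (0.86), Ctla4 most like 4921524J17Rik (0.86), Rbm27 (0.82) and Aebp2 (0.78), and Havcr2, through the myeloid-like cells, most like Sowahc (0.96) and Pf4 (0.95).

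Single cells seldom held several members. After thinning, 31.7% (26.5% to 37.2%) of Tnfrsf9 Eomes thymic cells had UMIs of at least 2 of the 8 genes and 9.24% (6.23% to 13.1%) of at least 3. In NK-like hepatic cells the shares were 23.2% and 2.46%, in mature type-1-like thymic cells 15.3% and 2.73%, and in immature Sox13-like thymic cells 6.45% and 0.272%. Of 63 pairs of members compared within 7 clusters, the share of cells with the second gene differed beyond its interval between cells with and without the first in 3, named here after their values were seen. In Ccr7 S1pr1 thymic cells, Cd160 was found in 14.9% (6.20% to 28.3%, 7 of 47 cells) with Pdcd1 and 3.07% (1.97% to 4.53%, 24 of 783 cells) without. In IL-17-like hepatic cells, Icos was found in 33.8% (23.0% to 46%, 24 of 71 cells) with Ctla4 and 19.4% (16.6% to 22.5%, 139 of 715 cells) without. Read the other way, this pair overlapped, with Ctla4 in 14.7% (9.67% to 21.1%) with Icos and 7.54% (5.60% to 9.91%) without. The other named pairs stayed apart in both directions. In Cd28 Socs2-like hepatic cells, Icos was found in 15.9% (13.3% to 18.8%, 116 of 728 cells) with Cd160 and 22.9% (20.05% to 25.9%, 190 of 831 cells) without. Doublets were kept, and their part in these shares was not tested.

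**Figure D4:**
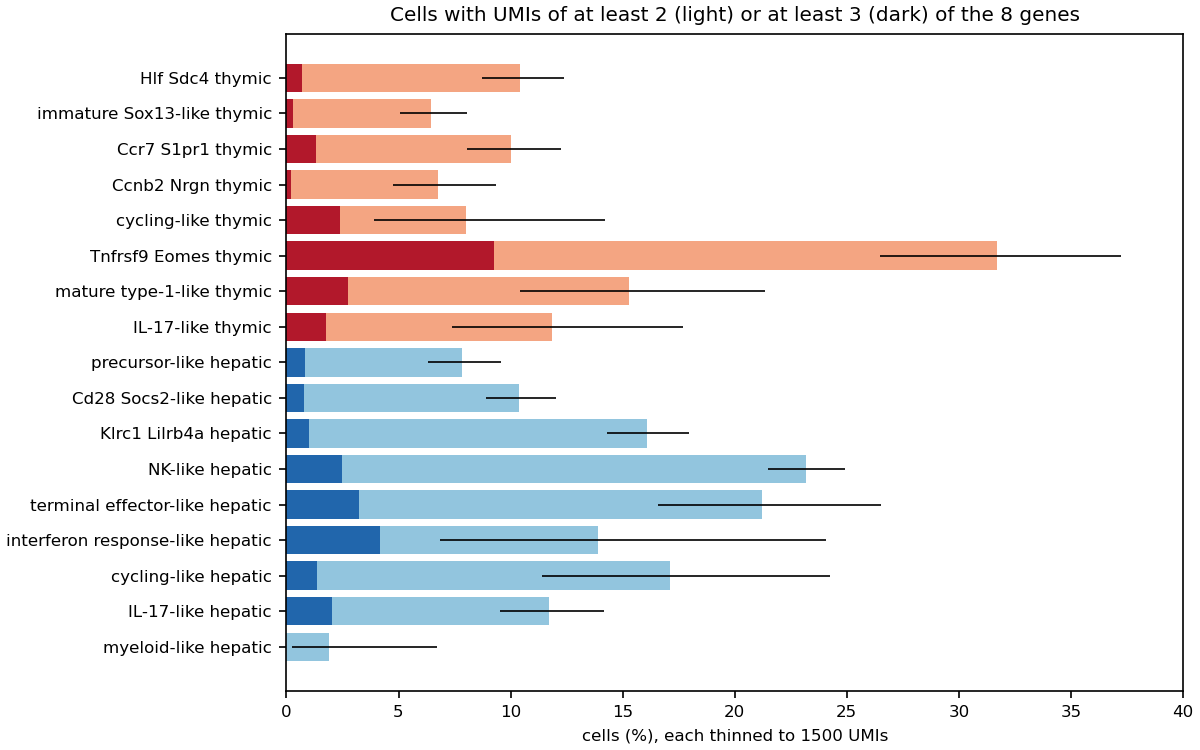
Share of cells (%) in each cluster with UMIs of at least 2 (light) or at least 3 (dark) of the 8 genes after thinning to 1500 UMIs, thymic clusters in red and hepatic ones in blue, with exact 95% binomial intervals for the light bars. Tnfrsf9 Eomes thymic cells had the highest share for at least 2 genes, 31.7%.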

How the data were processed

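γδ T cells of 1 hepatic and 1 thymic library were compared, grouped by the tissue in the labels. The authors deposited counts, unnormalised UMIs of each gene in each barcode. Per the submitters' processing notes Cell Ranger, Seurat 3.0 and the build mm10 were used, and other details of alignment and counting are not given in the sources used here. The thymic file ended with 2 stray lines without numbers, which were skipped. Libraries held 25040963 and 17371662 UMIs.

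Cells with 800 to 4000 genes and at most 6% mitochondrial UMIs were clustered per library in Seurat 5.3.0 under R 4.3.3 (2000 variable genes, 30 principal components, resolution 0.6), with 55 genes, the members and their pathway among them, left out of the variable genes. A cluster took an X-like name where its mean log2 marker score against the other clusters was at least 0.5 and led the next by 0.2, with at least 3 markers detected, at least 2 of them among the 10 leading genes and no other list with more there. Clusters without a name carry leading genes, and a different naming may change which cells a level describes. UMIs were summed per class in Python 3.11.15 with numpy 2.4.6, scipy 1.17.1 and pandas 2.3.3, and intervals at 95% came from exact Poisson and binomial distributions. Tested on counts simulated as Poisson for 3916 unchanged genes and 50 genes at each of 4 set folds of the mature type-1-like over immature thymic contrast, the ratio intervals held the simulated ratio, the set fold after rescaling to the total, in 94.0% to 100% of genes, by fold. The intervals assume Poisson counts too, so this checked the computation and not the spread between cells. Genes with at least 50 UMIs over both classes entered counts of 2-fold differences. Doublets were kept: Scrublet (scanpy 1.11.5) called 1 hepatic and 2 thymic cells, too few to have worked, so an alternative removed the 559 and 158 highest scores.

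The members, the 47 other pathway genes and the marker lists were chosen with earlier results of these data known. Named were all members, pathway genes of the lists, the 3 genes most correlated with each member, of which 1 for Havcr2 is not reported here, and genes on which a result turned, chosen after their values were seen. Alternatives varied the clustering, the cell filters, doublet scores, the total, thinning, and classes by marker UMIs. Of the latter, the Ccr7 S1pr1, Tnfrsf9 Eomes and immature thymic classes could share cells. 1 B cell-like hepatic cluster of 14 cells was given no level. Figures were drawn with matplotlib 3.10.9.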

Additional observations from a re-analysis of the deposited data

How the results depend on the processing

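Each ratio that was recomputed kept its direction under 14 alternatives, or 7 for the ratios between whole libraries. Levels of a single class have no direction to keep, and that of Lag3 in IL-17-like thymic cells ranged from 1.06 to 25.9 CPM. Alternatives for the results not listed next were added after the data were seen, and 73 of those 280 values moved beyond the counting interval. The Cd160 ratio of NK-like to Cd28 Socs2-like cells was 1.33 at resolution 0.4, 1.43 with both libraries clustered together, 2.08 with 20 components, 2.02 with 3000 variable genes, 2.06 with no gene left out, 2.11 without the highest doublet scores, 2.17 without mitochondrial and ribosomal-protein genes in the total and 2.55 by marker UMIs. The Icos ratio of Cd28 Socs2-like to NK-like cells was 11 at resolution 0.4, 10.5 with joint clustering and 10.3 by marker UMIs. At resolution 0.4 the Cd28 Socs2-like class grew to 3075 cells. With joint clustering, Pdcd1 in mature type-1-like thymic cells was 149 CPM and 19.5 times the type-1 hepatic level, in a class of 333 cells that held 147 of the 305 Tnfrsf9 Eomes cells. Without mitochondrial and ribosomal-protein genes in the total it was 139 CPM, since the total shrank. The Tox ratio of immature thymic to type-1 hepatic cells was 6.18 after thinning, 6.68 with the smaller total and 4.67 by marker UMIs. The Cd200 ratio of Ccr7 S1pr1 to immature cells was 3.59 with at least 500 genes per cell, 3.54 without the highest doublet scores and 1.62 by marker UMIs. The Lag3 ratio of type-1 hepatic to immature thymic cells was 46.2 by marker UMIs. Where no cause is given, the cause was not tested.

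Single libraries allow no replicate error, and no paired analysis was possible because there was 1 library per tissue. Depth limits Havcr2, with 3 thymic UMIs, and Lag3 in immature cells, with 3. The mature type-1-like thymic class rests on 183 cells and 50 Pdcd1 UMIs, and the library of origin cannot be told apart from tissue, from the CD4 and CD8 depletion of thymic cells or from cell capture.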
